A study of Mus musculus with 14 samples.

Results

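Lung macrophages are commonly recognised by a small set of genes, and 10 of them were followed here across ventilated and control lungs of jnk1-/- and wild-type mice. The genes were Marco, Msr1, Mrc1, Chil3, Cd68, Adgre1, Itgax, C1qa, C1qb and Csf1r, chosen by name, and all probes whose symbol or older symbol matched one of them were taken. Of the 10 genes, 8 had a probe, 1 each, among 19621 probes that named 13923 genes. No probe of the table was named Mrc1 or Csf1r, so the mannose receptor and the receptor of colony stimulating factor 1 were not analysed here. Lung RNA of 14 adult mice was labelled with Cy5 and hybridised to CodeLink UniSet I 20K mouse arrays, each animal on an array of its own.

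The 4 groups were 4 ventilated jnk1-/- mice, 3 jnk1-/- controls, 4 ventilated wild-type mice and 3 wild-type controls. JNK1 is the c-Jun kinase encoded by Mapk8, the jnk1-/- mice carried its deletion in the germline, and both strains had a C57/BL6 background. Ventilation was given through a tracheostomy under ketamine and acepromazine, with room air, at 10 ml/kg for 8 hours, with hourly recruitment and pancuronium. Controls were anaesthetised in the same way and sacrificed at once, so time under anaesthesia, recruitment and pancuronium went with ventilation and cannot be told apart from it. Wild-type mice were purchased and jnk1-/- mice came from a line generated in an academic laboratory, and the methods do not say where these animals were bred. Age and sex were matched but are not given per animal. The animals of the arrays were separate from those whose lungs were lavaged.

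Macrophages of the airspace and of the interstitium clear particles, surfactant and dying cells. Scavenger receptors (Marco, Msr1) bind modified lipoproteins and bacteria, and Cd68 is a glycoprotein of the lysosome and late endosome. Chil3 is a secreted chitinase-like protein of mouse alveolar macrophages, Itgax is the integrin chain CD11c, which mouse alveolar macrophages share with dendritic cells, and Adgre1 is F4/80, an adhesion receptor. The C1q chains start the classical complement pathway and are made mainly by macrophages, with interstitial cells as a main source in the lung. In whole-lung RNA, fewer macrophages and less RNA of a marker per macrophage cannot be told apart.

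The RefSeq table of promoters (GRCm38.p6, 250 bases before and 50 after each start) held 6 of the 10 genes, and also C1qc, the partner chain of C1qa and C1qb. The promoters of Cd68 and Itgax are shown because both genes had lower values in ventilated jnk1-/- lungs and because AP-1, the c-Jun factor that JNK1 phosphorylates, binds TGANTCA. Those of C1qb and C1qc are shown because these chains varied together across the arrays. Capitals mark matches on either strand to TGANTCA, which reads as itself on the other strand, or to AGGAAGT, a core that ETS factors such as PU.1 of macrophages bind. These motifs do not overlap in the windows shown.
Cd68, chr11:69666121-69666420, minus strand: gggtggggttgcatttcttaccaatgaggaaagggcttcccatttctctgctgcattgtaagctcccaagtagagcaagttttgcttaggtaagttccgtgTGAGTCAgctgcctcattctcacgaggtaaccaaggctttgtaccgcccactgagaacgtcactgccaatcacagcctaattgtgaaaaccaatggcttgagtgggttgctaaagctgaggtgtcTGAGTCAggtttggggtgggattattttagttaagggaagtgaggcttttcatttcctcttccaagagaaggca
Itgax, chr7:128129300-128129599, plus strand: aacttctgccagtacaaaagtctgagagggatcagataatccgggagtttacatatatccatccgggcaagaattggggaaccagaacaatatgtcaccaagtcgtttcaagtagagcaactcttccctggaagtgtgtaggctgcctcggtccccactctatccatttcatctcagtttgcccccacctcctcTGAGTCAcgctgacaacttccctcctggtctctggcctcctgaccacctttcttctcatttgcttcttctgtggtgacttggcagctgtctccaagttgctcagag
C1qb, chr4:136886151-136886450, minus strand: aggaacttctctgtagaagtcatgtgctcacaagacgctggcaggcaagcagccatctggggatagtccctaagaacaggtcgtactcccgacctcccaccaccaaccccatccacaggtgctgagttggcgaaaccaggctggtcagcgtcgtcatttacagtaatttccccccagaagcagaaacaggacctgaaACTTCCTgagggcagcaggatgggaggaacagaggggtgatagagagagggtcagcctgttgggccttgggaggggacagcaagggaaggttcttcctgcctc
C1qc, chr4:136892865-136893164, minus strand: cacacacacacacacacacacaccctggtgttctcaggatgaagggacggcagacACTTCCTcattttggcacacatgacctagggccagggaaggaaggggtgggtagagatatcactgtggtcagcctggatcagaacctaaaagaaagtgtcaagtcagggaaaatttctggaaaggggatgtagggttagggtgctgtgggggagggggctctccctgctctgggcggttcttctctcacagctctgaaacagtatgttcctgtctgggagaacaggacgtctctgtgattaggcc
The Cd68 window held 2 matches to TGANTCA, which begin 149 and 24 bases before the start, and the Itgax window held 1, which begins 56 bases before it. TGANTCA was found in 7.81% of all 32851 promoters of this length and at least 2 times in 0.46%. AGGAAGT, which 9.35% of all promoters held, occurred 1 time each in C1qb and C1qc, both on the reverse strand, and 1 time each in Chil3 and Mrc1. The Marco window held neither motif. A match is a run of letters, and binding was not measured. The C1qb, C1qc and Chil3 windows held no TGANTCA. These genes also had lower means in ventilated than in control jnk1-/- lungs (differences −0.34, −0.85 and −0.31). Marco, also without TGANTCA, had a higher mean (0.40). The part of AP-1 in these differences was not tested.

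The deposited log2 intensities had array medians of 4.98 to 6.37 and were brought to a common scale by cyclic loess. Wild-type control replicates 2 and 3 had 10.7% and 6.98% of their probes at the lowest deposited value, against 1.86% to 4.52% on the other arrays. These arrays also lay close to each other (SD of their difference 0.313 over the brighter probes, against 0.598 and 0.508 for their pairs with replicate 1), as did jnk1-/- control replicates 1 and 2 (0.309, against 0.678 and 0.660). The Mapk8 probe averaged 2.81 in ventilated jnk1-/- lungs, 1.57 in jnk1-/- controls, 3.54 in ventilated wild-type lungs and 3.05 in wild-type controls. It lay at the floor of the authors' own normalized table (log2 3.12, which holds 24.5% of that table's values) on 6 of 7 jnk1-/- arrays and 3 of 7 wild-type arrays, so it checked the genotype little. The probe's position relative to the deleted part is not known here. Of the 8 macrophage genes, 7 lay above that floor on every array, and Adgre1 lay at it on 13 of 14.

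Differences are given below on the log2 scale from limma, and a gene was called at an adjusted p under 0.05 over all probes. No macrophage gene was called for ventilation in jnk1-/- lungs, in wild-type lungs, or between the genotypes with or without ventilation, and 1, Msr1, was called for ventilation averaged over the genotypes, where it was higher. In jnk1-/- lungs the calls were 0 of 8 (3 at an unadjusted p under 0.05), against 11.6% of all probes, and the median difference of the 8 genes was −0.32, against −0.06 over all probes. In wild-type lungs they were 0 of 8 (1 unadjusted), against 3.79%, with a median of 0.15, against 0.07. Averaged over genotypes they were 1 of 8 (1 unadjusted), against 15.9%, with a median of −0.06, against 0.02. Between jnk1-/- and wild-type controls they were 0 of 8 (2 unadjusted), against 4.1%, with a median of 0.08, against 0.10. After ventilation they were 0 of 8 (1 unadjusted), against 0.525%, and for the difference of the ventilation effect 0 of 8 (1 unadjusted), against 0.413%. The Welch test of the methods, after Benjamini-Hochberg adjustment, called 0 of 8 in each of the 4 comparisons it was run for. Of all probes it called only 41 for ventilation in jnk1-/- lungs and 20 in wild-type lungs. Between the genotypes it called 2 of all probes in controls and 18 after ventilation. With so few calls, 0 of 8 by this test says little about the macrophage genes. The called share of macrophage genes was at or below that of all probes in every comparison, and with 8 genes the share of all probes amounts to about 1 gene at most.

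**Figure D1:**
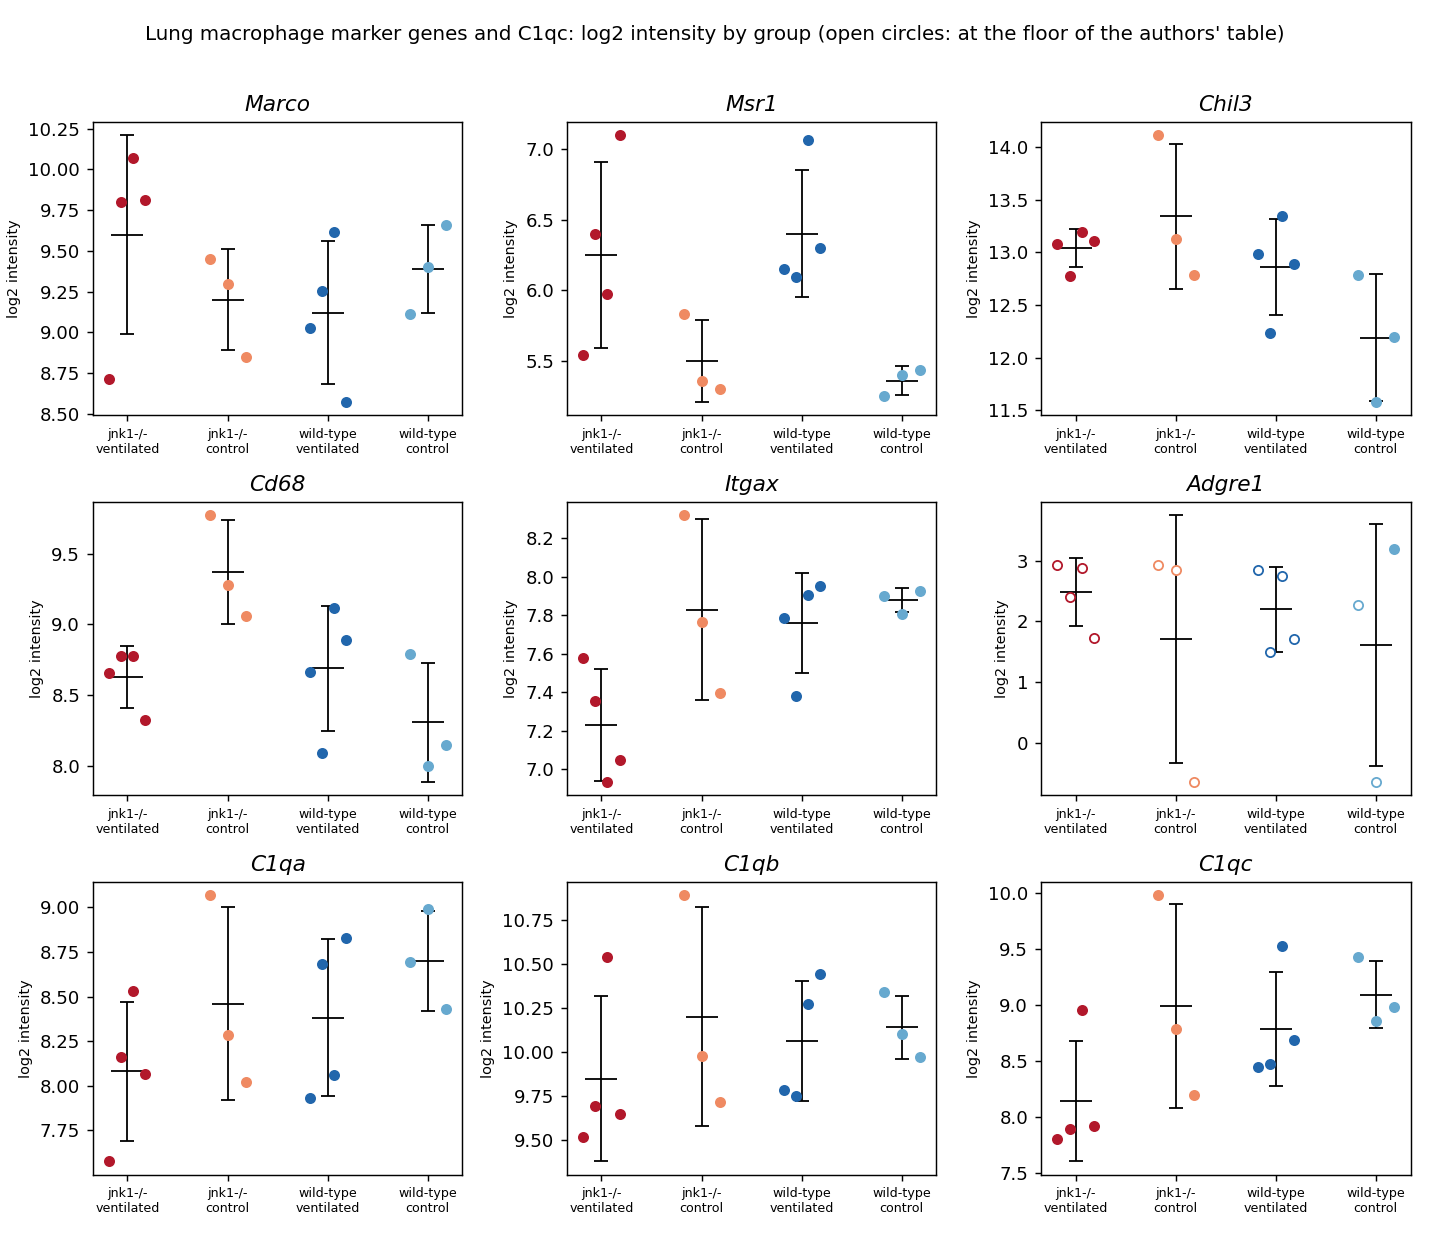
Log2 intensity of the 8 measured lung macrophage genes and C1qc on each array, by group; points are arrays (open where the authors' table is at its floor) and bars give the mean and SD, with a y axis of its own per gene. Msr1 lies at 6.10 to 7.07 in ventilated and 5.25 to 5.43 in control wild-type lungs, and Cd68 at 9.06 to 9.77 in jnk1-/- controls, above every other control.

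Msr1, the class A scavenger receptor that takes up oxidised lipoproteins and bacteria (chr8:39543232-39642750), had higher values after ventilation in both genotypes. Its log2 intensity was 5.54, 6.40, 5.97 and 7.10 in ventilated jnk1-/- lungs, against 5.83, 5.36 and 5.30 in jnk1-/- controls. It was 6.15, 6.10, 7.07 and 6.30 in ventilated wild-type lungs, against 5.25, 5.40 and 5.43 in wild-type controls. The wild-type groups did not overlap, as for 21.8% of all probes, while 1 ventilated jnk1-/- lung lay within the range of its controls. The difference averaged over genotypes was 0.90 (SE 0.24, 95% confidence interval 0.37 to 1.43, adjusted p = 0.0269), a 1.87-fold higher intensity. Within genotypes it was 0.76 (SE 0.34, adjusted p = 0.182) in jnk1-/- and 1.04 (SE 0.34, adjusted p = 0.113) in wild-type lungs, and neither was called. The effect in jnk1-/- minus that in wild-type lungs was −0.29 (95% confidence interval −1.35 to 0.77, adjusted p = 0.826). Over the alternatives the averaged difference lay between 0.76 and 1.02 and its adjusted p between 0.0124 and 0.114. The call was lost without wild-type control replicate 1 or 3 (adjusted p = 0.0523 and 0.0516), jnk1-/- control replicate 2 or 3 (0.0626 and 0.0522), ventilated jnk1-/- replicate 2 (0.0504), or both wild-type control replicates 2 and 3 (0.114), and also with the replicate number as a block (0.78, adjusted p = 0.107) and with close control arrays averaged (0.94, adjusted p = 0.0776).

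Neutrophil markers moved in the same comparison. Of all probes, 6.43% were higher and 5.18% lower after ventilation in jnk1-/- lungs, and 2.18% and 1.61% in wild-type lungs. Of 16 measured neutrophil genes, 5 were higher and 1 lower after ventilation in jnk1-/- lungs and 7 higher and 0 lower in wild-type lungs (3 higher without wild-type control replicates 2 and 3). The log2 of their summed intensity was 14.01 to 15.16 in ventilated jnk1-/- lungs, against 12.91 to 13.33 in jnk1-/- controls, and 14.71 to 15.15 in ventilated wild-type lungs, against 13.26 to 13.60 in wild-type controls. Mmp8, a collagenase of neutrophil granules, rose by 5.42 in jnk1-/- and 5.30 in wild-type lungs. The part of these cells in the Msr1 difference was not tested.

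Marco, the other class A scavenger receptor among the markers (chr1:120474538-120505024), showed no called difference. It had 8.71, 9.80, 10.07 and 9.81 in ventilated jnk1-/- lungs, against 9.45, 9.29 and 8.85 in jnk1-/- controls. It had 9.02, 9.26, 9.62 and 8.57 in ventilated wild-type lungs, against 9.11, 9.40 and 9.66 in wild-type controls. The groups overlapped in every comparison, and ventilated jnk1-/- replicate 1 stood 1.09 below the next array of its group. The ventilation difference was 0.40 (95% confidence interval −0.33 to 1.14) in jnk1-/- lungs and −0.27 (−1.01 to 0.46) in wild-type lungs, and these effects differed by 0.68 (−0.36 to 1.71, adjusted p = 0.567). In order of mean level, ventilated jnk1-/- lungs (9.60) were followed by wild-type controls (9.39), jnk1-/- controls (9.20) and ventilated wild-type lungs (9.12), with SDs of 0.27 to 0.61, so neighbours in that order differed by less than their spread.

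Cd68, the lysosomal glycoprotein most often used to stain macrophages (chr11:69664213-69666170), was highest in the jnk1-/- controls. It had 8.66, 8.78, 8.78 and 8.32 in ventilated jnk1-/- lungs, against 9.77, 9.28 and 9.06 in jnk1-/- controls. It had 8.67, 8.09, 9.12 and 8.89 in ventilated wild-type lungs, against 8.79, 8.00 and 8.15 in wild-type controls. All 3 jnk1-/- controls lay above all ventilated jnk1-/- lungs, a separation that 23.5% of all probes show, and above all wild-type controls, as for 26.7% of probes. The jnk1-/- controls exceeded the wild-type controls by 1.06 (SE 0.30, 95% confidence interval 0.40 to 1.71, 2.08-fold), with an unadjusted p = 0.00444 and an adjusted p = 0.0758. Ventilated minus control was −0.74 (SE 0.28, adjusted p = 0.116) in jnk1-/- lungs and 0.38 (SE 0.28, adjusted p = 0.502) in wild-type lungs, and the difference of these effects was −1.11 (SE 0.40, unadjusted p = 0.0164, adjusted p = 0.265). After ventilation the genotypes differed by −0.06 (−0.63 to 0.51) and overlapped, as all 8 genes did in that comparison and all but 6.35% of probes. The order of the means was jnk1-/- controls (9.37), ventilated wild-type lungs (8.69), ventilated jnk1-/- lungs (8.63) and wild-type controls (8.31), and only the step below the jnk1-/- controls exceeded the SDs of 0.22 to 0.44. The control difference passed the threshold without dim probes (adjusted p = 0.043) and with array weights (0.0128). Array weights called 2220 of all probes between controls, against 805 in the main fit. The Cd68 difference also passed without wild-type control replicate 1 (1.29, adjusted p = 0.0369), and it was 0.58 without wild-type control replicates 2 and 3. Across 18 alternatives it lay between 0.58 and 1.29, and by the Welch test of the methods its adjusted p was 0.39.

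Chil3, which macrophages of the mouse airspace secrete (Ym1, chr3:106147554-106167564), showed the same order of the controls. It had 13.08, 12.77, 13.19 and 13.11 in ventilated jnk1-/- lungs, against 14.11, 13.13 and 12.78 in jnk1-/- controls. It had 12.98, 12.23, 13.34 and 12.89 in ventilated wild-type lungs, against 12.78, 11.58 and 12.20 in wild-type controls. The jnk1-/- controls lay at or above the highest wild-type control, with the lowest of them equal to it at the second decimal. Their difference of 1.15 (SE 0.39, 95% confidence interval 0.30 to 2.00, 2.22-fold) had an unadjusted p = 0.0121 and an adjusted p = 0.125. Over 18 alternatives it lay between 0.54, with median scaling, and 1.45, with adjusted p of 0.0274 to 0.763, and it was 0.56 without wild-type control replicates 2 and 3 and 0.76 without jnk1-/- control replicate 1. Ventilated minus control was −0.31 (SE 0.36, adjusted p = 0.665) in jnk1-/- and 0.67 (SE 0.36, adjusted p = 0.334) in wild-type lungs, and the effects differed by −0.97 (95% confidence interval −2.10 to 0.15, adjusted p = 0.447). Chil4 (Ym2), the near-identical neighbour of Chil3 at chr3:106201491-106219479, can share signal with it, and its probe lay at the authors' floor on 10 of 14 arrays. Its values were 1.42 to 3.13 in ventilated jnk1-/- lungs, 2.87 to 4.55 in jnk1-/- controls, 2.56 to 3.04 in ventilated wild-type lungs and 1.80, 5.29 and 6.05 in wild-type controls, where only replicates 2 and 3 were above the floor. Chil4 was thus not highest where Chil3 was. Its probe lay at the floor on all 8 ventilated arrays, so no size is given for ventilation, which was not called (averaged, adjusted p = 0.0939).

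Markers of other cells differed between the same controls. Of all probes, 1.92% were higher and 2.19% lower in jnk1-/- than in wild-type controls. Of 15 measured dendritic cell and MHC class II genes, 4 were higher and 1 lower in jnk1-/- than in wild-type controls, and their summed log2 intensity was 14.51 to 14.91 in jnk1-/- controls, against 13.36 to 13.63 in wild-type controls. Of 11 skeletal muscle genes 9 were higher, with sums of 13.53 to 14.09 in jnk1-/- controls, against 8.98 to 12.44 in wild-type controls, and of 12 stratified squamous genes 10 were higher (12.35 to 13.38, against 7.64 to 8.47). Platelet genes were lower for 2 of 8 (10.28 to 10.59, against 11.37 to 11.93). Without wild-type control replicates 2 and 3 the counts were 0 of 15 dendritic, 8 of 11 muscle, 9 of 12 squamous and 0 of 8 platelet genes. In ventilated against control jnk1-/- lungs 9 muscle and 11 squamous genes were lower, with sums of 9.86 to 10.55 and 8.77 to 9.35 in the ventilated lungs. The part of these differences in those of Cd68 and Chil3 was not tested.

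Itgax, the CD11c chain (chr7:128129526-128150657), had its lowest values in ventilated jnk1-/- lungs. It had 7.58, 7.35, 6.94 and 7.05 in ventilated jnk1-/- lungs, against 8.32, 7.77 and 7.39 in jnk1-/- controls. It had 7.79, 7.38, 7.91 and 7.95 in ventilated wild-type lungs, against 7.90, 7.81 and 7.93 in wild-type controls. Only ventilated jnk1-/- replicate 1 lay above the lowest jnk1-/- control, and ventilated wild-type replicate 2 was the only wild-type array in the range of the ventilated jnk1-/- lungs. Ventilated minus control was −0.60 (SE 0.24, unadjusted p = 0.0292, adjusted p = 0.134) in jnk1-/- and −0.12 (SE 0.24, adjusted p = 0.836) in wild-type lungs. After ventilation, jnk1-/- minus wild type was −0.53 (SE 0.22, unadjusted p = 0.0364, adjusted p = 0.459), and none of these was called. With array weights in limma the difference in jnk1-/- lungs was −0.78 and passed (adjusted p = 0.0298), as did Cd68 (−0.87, adjusted p = 0.0382). Array weights called 3758 of all probes in this comparison, against 2278 in the main fit. Itgb2, the beta 2 chain that pairs with Itgax and with the other leukocyte integrins, instead followed the order of Cd68. It had 8.12, 8.13, 8.06 and 8.35 in ventilated jnk1-/- lungs, against 9.05, 8.71 and 8.63 in jnk1-/- controls. It had 8.44, 7.86, 8.92 and 8.15 in ventilated wild-type lungs, against 8.57, 7.43 and 7.48 in wild-type controls. The jnk1-/- controls exceeded the wild-type controls by 0.97 (SE 0.32, adjusted p = 0.122), which was not called. Dendritic cell genes moved with Itgax in jnk1-/- lungs, where 4 of 15 (26.7%, against 5.18% of all probes) were lower and 0 higher after ventilation. Their summed log2 intensities were 13.47 to 14.17 in ventilated and 14.51 to 14.91 in control lungs. The part of these genes in the Itgax difference was not tested.

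Adgre1 (F4/80, chr17:57358581-57483529) could not be followed. Its log2 intensity was 1.72 to 2.93 in ventilated jnk1-/- lungs, −0.64 to 2.92 in jnk1-/- controls, 1.50 to 2.84 in ventilated wild-type lungs and −0.64 to 3.18 in wild-type controls, and only wild-type control replicate 3 lay above the authors' floor. Its differences had SEs of 0.68 to 1.36, and their sign changed under several alternatives, so no order of the groups is given.

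**Figure D2:**
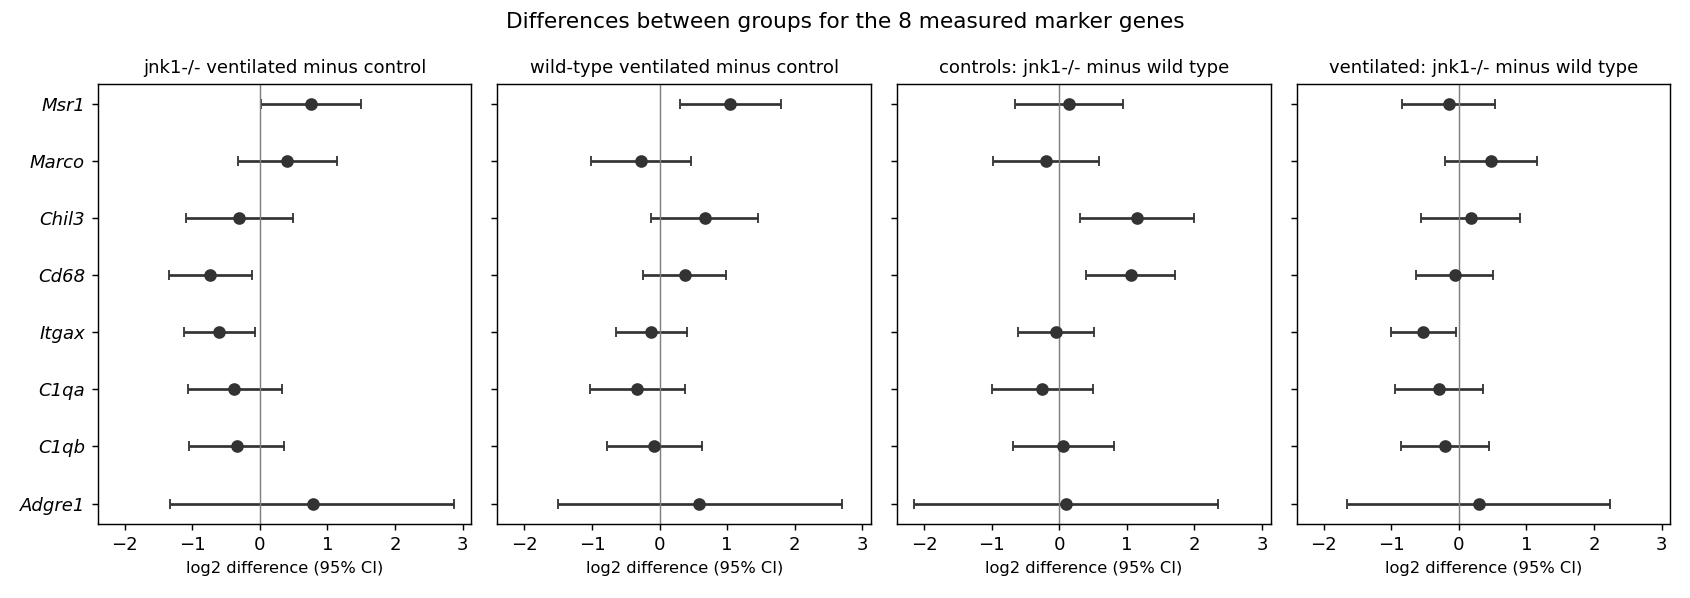
Log2 difference (points) and 95% confidence interval (bars) from limma for the 8 measured macrophage genes in 4 comparisons, ventilated minus control in jnk1-/- and in wild-type lungs, then jnk1-/- minus wild type in controls and after ventilation. Msr1 lies above 0 in both ventilation panels (0.76 and 1.04), and Chil3 and Cd68 lie above 0 between the controls (1.15 and 1.06).

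C1qa and C1qb encode chains of C1q, the recognition molecule of the classical complement pathway, and the third chain, C1qc, was followed with them. The genes are neighbours on chromosome 4, with C1qb at chr4:136880126-136886200, C1qc at chr4:136889801-136892936 and C1qa at chr4:136895916-136898844. None of the chains had a called difference, and in both genotypes the means were lower after ventilation. C1qa had 7.58, 8.16, 8.53 and 8.07 in ventilated jnk1-/- lungs, against 9.07, 8.29 and 8.02 in jnk1-/- controls. It had 7.93, 8.68, 8.06 and 8.83 in ventilated wild-type lungs, against 8.69, 8.99 and 8.43 in wild-type controls. The C1qa groups overlapped in each comparison, and its averaged ventilation difference was −0.35 (SE 0.23, adjusted p = 0.332). C1qb had 9.52, 9.70, 10.54 and 9.65 in ventilated jnk1-/- lungs, against 10.89, 9.98 and 9.72 in jnk1-/- controls. It had 9.78, 9.75, 10.27 and 10.44 in ventilated wild-type lungs, against 10.34, 10.10 and 9.97 in wild-type controls. For C1qb the highest arrays were jnk1-/- control replicate 1 and ventilated jnk1-/- replicate 3, in opposite groups, and the averaged difference was −0.21 (SE 0.23, adjusted p = 0.589). C1qc had 7.80, 7.89, 8.95 and 7.91 in ventilated jnk1-/- lungs, against 9.98, 8.78 and 8.20 in jnk1-/- controls. It had 8.45, 8.47, 9.52 and 8.68 in ventilated wild-type lungs, against 9.43, 8.86 and 8.98 in wild-type controls. The C1qc difference averaged −0.58 (95% confidence interval −1.24 to 0.09, adjusted p = 0.23), and apart from replicate 3 the ventilated jnk1-/- lungs lay below every other array of the study. Over the 14 arrays, where the chains share each array and its scaling, the Pearson correlation was 0.87 for C1qb with C1qc, 0.73 for C1qa with C1qb and 0.64 for C1qa with C1qc. After the group means were taken away it was 0.90, 0.72 and 0.49.

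The spread between the jnk1-/- controls was shared by the macrophage genes. Adgre1 is left out here because it lay at the authors' floor on all 3. Replicate 1 was the highest of its group for 7 of 7 genes and replicate 3 the lowest for 7 of 7, and replicate 1 was the highest of all 14 arrays for 5. Of all probes, 20.5% had this order of the jnk1-/- controls. The median deviation of the 7 genes from their group means was 0.49 on jnk1-/- control replicate 1 and −0.43 on replicate 3. Among the ventilated wild-type lungs, replicate 3 stood at 0.43 and replicate 2, the lowest of its group for 5 of 7 genes, at −0.31. For Chil3, for example, the jnk1-/- controls had an SD of 0.69, against a group difference of 1.15.

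**Figure D3:**
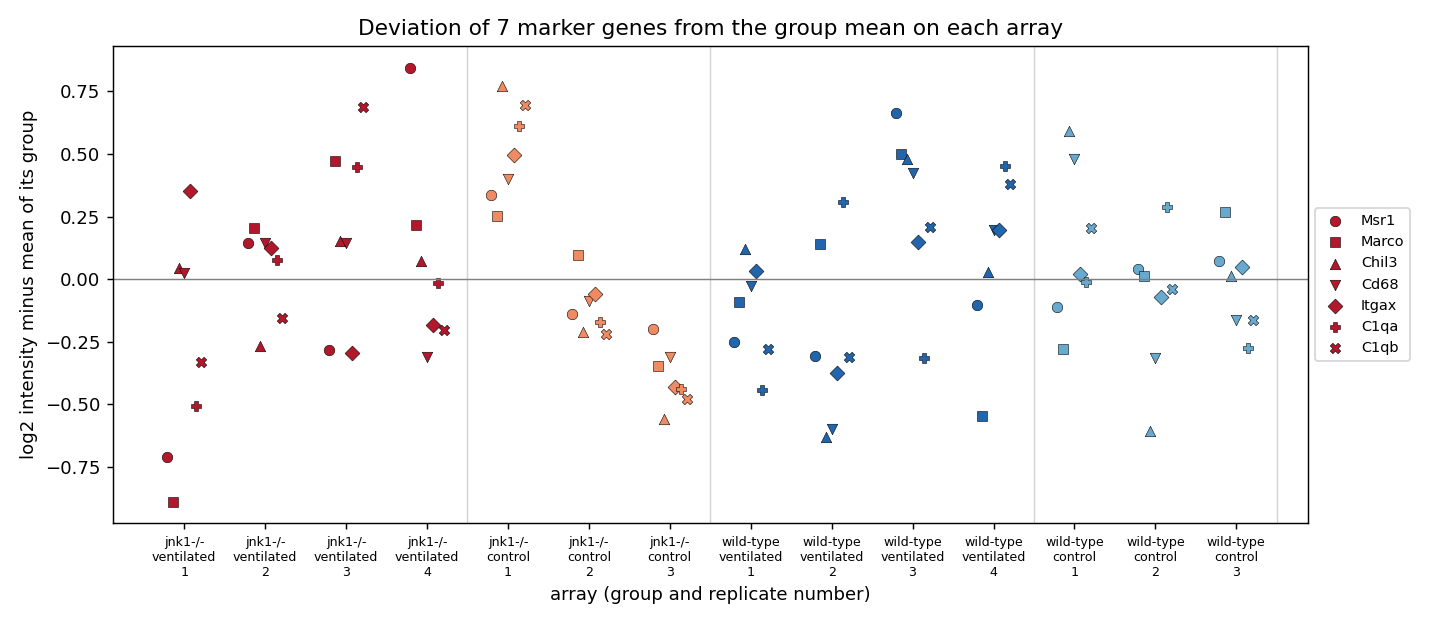
Deviation of 7 macrophage genes (Adgre1 left out) from the mean of their own group, in log2 units, on each of the 14 arrays; symbols stand for genes and colours for groups. All 7 lie above 0 on jnk1-/- control replicate 1 and below 0 on replicate 3.

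The genes closest to each marker over the 14 arrays were taken from probes brighter than the median, by Pearson correlation, as a description with no test. Msr1 was most like F13a1 (0.92), which encodes the A chain of coagulation factor XIII and is expressed by monocytes, 5133401H06Rik (0.90) and Ms4a6d (0.90), a membrane protein of monocytes and macrophages. Cd68 was most like Mpeg1 (0.95), the pore-forming perforin-2 of macrophages, Pik3ap1 (0.91) and Itgb2 (0.87). Chil3 was most like Ap3s1 (0.87), Clec4a2 (0.86), an inhibitory lectin receptor of myeloid cells, and Klra2 (0.85), and Chil3 and Cd68 correlated at 0.85 with each other, also within groups. For Itgax the closest was Plbd1 (0.88), for C1qb C1qc (0.87), for C1qa Jkamp (0.87) and for Marco Mrpl12 (0.75), and none is given for Adgre1. Msr1 and Cd68 correlated at −0.01 over the arrays and at 0.17 within groups, and Marco and Msr1, both class A scavenger receptors, at 0.36 and 0.61.

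Wider lists of macrophage-related genes were also read, chosen like the markers with earlier results of these data known. Their called shares are a description, and no test of them was run. Over 8 such lists, 155 genes were measured. After ventilation 15 were higher and 18 lower in jnk1-/- lungs (9.68% and 11.6%, against 6.43% and 5.18% of all probes). In wild-type lungs 16 were higher and 3 lower (10.3% and 1.94%, against 2.18% and 1.61%). Between the controls 9 were higher and 2 lower in jnk1-/- (5.81% and 1.29%, against 1.92% and 2.19%). After ventilation 0 were higher and 1 lower in jnk1-/- (0% and 0.645%, against 0.24% and 0.285% of all probes). Averaged over the genotypes 25 were higher and 19 lower after ventilation (16.1% and 12.3%, against 8.3% and 7.55% of all probes). None was called for the difference of the ventilation effect between genotypes, which 0.209% of all probes passed upward and 0.204% downward, so a different response of these lists in jnk1-/- lungs was not shown. Without wild-type control replicates 2 and 3, only replicate 1 remains in that group. Fewer of the 155 genes were then called for ventilation in wild-type lungs, between controls and averaged over the genotypes. Fewer of all probes were called in these comparisons as well.

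**Figure D4:**
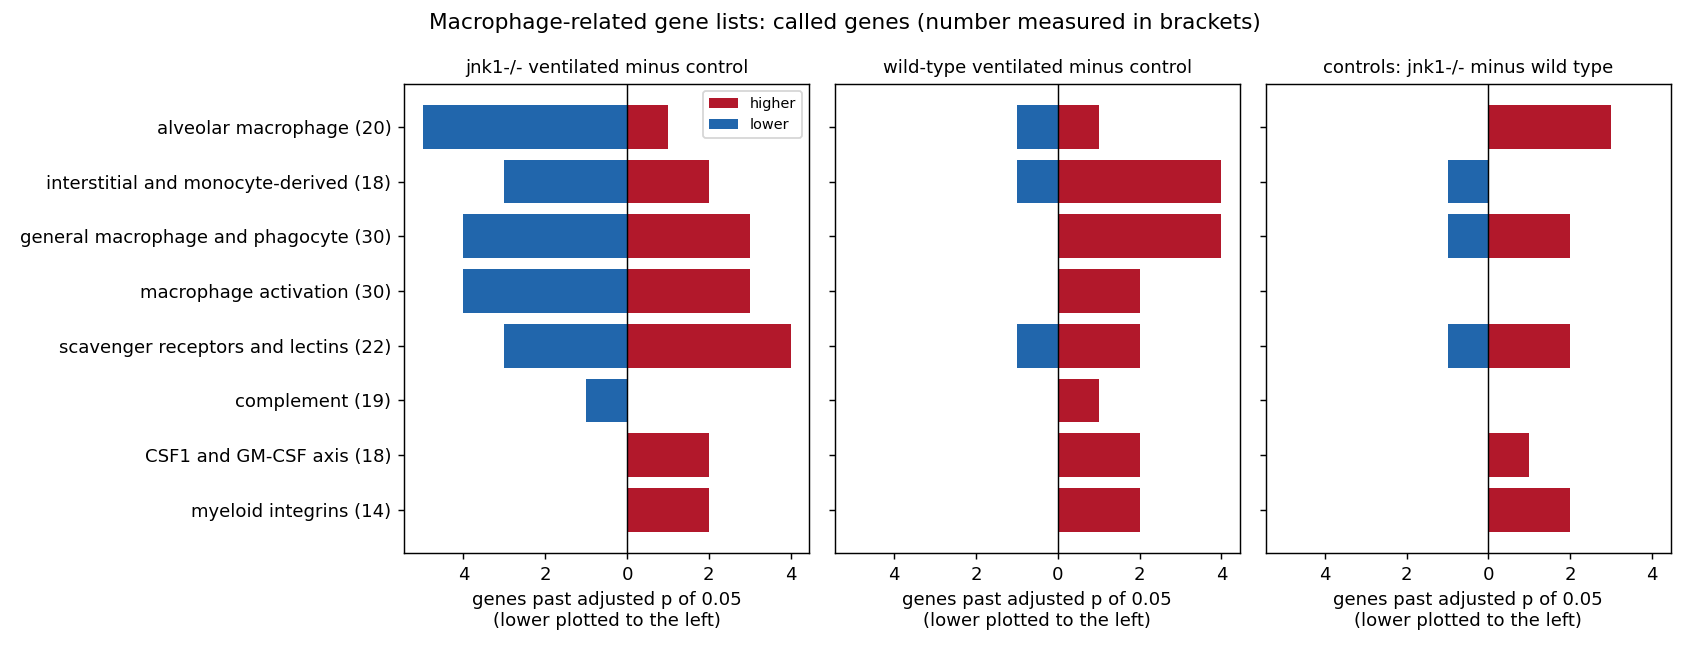
Number of genes past an adjusted p of 0.05 in 8 macrophage-related lists (number measured in brackets), higher to the right and lower to the left of 0, for ventilation in jnk1-/- lungs, ventilation in wild-type lungs and jnk1-/- against wild-type controls. Alveolar macrophage genes show 5 lower and 1 higher in ventilated jnk1-/- lungs, and interstitial and monocyte-derived genes 4 higher and 1 lower in ventilated wild-type lungs.

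Of 20 measured alveolar macrophage genes beyond the markers, 1 was higher and 5 lower after ventilation in jnk1-/- lungs (5% and 25%, against 6.43% and 5.18% of all probes). In wild-type lungs 1 was higher and 1 lower (5% and 5%, against 2.18% and 1.61%). Mcemp1 of this list had 10.25, 9.22, 10.27 and 9.80 in ventilated wild-type lungs, against 9.07, 7.76 and 7.73 in wild-type controls. Its values in jnk1-/- lungs were 8.87, 8.86, 10.18 and 9.51 ventilated, against 9.76, 9.20 and 9.05 in controls. Cebpb, also of this list, had 9.96, 9.81, 9.19 and 9.84 in ventilated jnk1-/- lungs, against 8.19, 8.46 and 8.95 in jnk1-/- controls. Fabp1, a fatty acid binding protein, fell by 2.03 in jnk1-/- (8.61 ventilated, against 10.63 control) and by 1.68 in wild-type lungs (8.12, against 9.80; adjusted p = 0.0179). Abcg1, which exports cholesterol from alveolar macrophages, fell by 1.57 in jnk1-/- lungs (6.61, against 8.18), and Cidec and Fabp5, of lipid droplets and fatty acid transport, fell by 1.19 and 1.14. These genes also had lower means after ventilation in wild-type lungs but were not called there. Abcg1 lay at 6.38 to 7.26 in ventilated wild-type lungs, against 7.20 to 7.42 in wild-type controls. Cidec lay at 9.46 to 9.60, against 9.96 to 10.16, and Fabp5 at 11.19 to 11.72, against 11.82 to 12.02. Between controls 3 were higher and 0 lower in jnk1-/- (15% and 0%, against 1.92% and 2.19% of all probes). They were Cidec (0.82), Olr1 (0.73), a receptor of oxidised lipoprotein, and Fabp5 (0.86). This comparison includes wild-type control replicates 2 and 3, the arrays with most probes at the lowest deposited value. Cidec is also an adipocyte gene, and of 7 measured adipocyte genes 5 were lower after ventilation in jnk1-/- lungs (summed log2 11.60 to 12.49, against 12.87 to 14.61) and 4 in wild-type lungs. The part of fat tissue in these differences was not tested.

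Of 18 measured interstitial and monocyte-derived macrophage genes, 2 were higher and 3 lower after ventilation in jnk1-/- lungs (11.1% and 16.7%, against 6.43% and 5.18% of all probes). In wild-type lungs 4 were higher and 1 lower (22.2% and 5.56%, against 2.18% and 1.61%). Ly6c1, an antigen of monocytes and also of endothelium, rose by 2.67 in jnk1-/- and 2.01 in wild-type lungs. Its groups did not overlap, as for 23.5% of all probes in jnk1-/- and 21.8% in wild-type lungs. Ms4a6d and F13a1 rose by 2.26 and 2.14 in wild-type lungs (adjusted p = 0.0258 and 0.0278). In jnk1-/- lungs Ms4a6d had 8.32, 9.14, 8.82 and 9.60 ventilated, against 8.23, 7.46 and 6.69 in controls. F13a1 had 7.24, 8.88, 7.91 and 9.46 in ventilated jnk1-/- lungs, against 7.59, 7.02 and 6.99 in jnk1-/- controls. Aif1, the macrophage protein IBA1, fell by 2.80 in jnk1-/- lungs (5.47, against 8.27) and by 1.74 in wild-type lungs (6.73, against 8.48). Its arrays were 4.61, 5.94, 6.01 and 5.34 in ventilated jnk1-/- lungs, against 9.04, 8.06 and 7.71 in jnk1-/- controls, so Aif1 and Msr1 had opposite directions among macrophage genes.

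Of 30 measured general macrophage and phagocyte genes, 3 were higher and 4 lower after ventilation in jnk1-/- lungs (10% and 13.3%, against 6.43% and 5.18% of all probes). In wild-type lungs 4 were higher and 0 lower (13.3% and 0%, against 2.18% and 1.61%). Hmox1, the haem oxygenase, rose by 2.45 in jnk1-/- and 2.46 in wild-type lungs, and Fcgr3, a low-affinity receptor of IgG, by 1.21 and 1.95. Ctsk instead had 5.23, 5.42, 5.22 and 4.94 in ventilated jnk1-/- lungs, against 6.42, 6.11 and 6.26 in jnk1-/- controls. In wild-type lungs Ctsk lay at 4.85 to 5.43 ventilated, against 5.04 to 5.77 in controls. Cd14, the lipopolysaccharide co-receptor, rose by 1.74 in wild-type lungs, and Itgam, the CD11b chain, by 1.56, and both are also made by neutrophils. In jnk1-/- lungs Cd14 had 10.44, 11.59, 10.68 and 10.87 ventilated, against 10.16, 9.81 and 9.68 in controls. Itgam had 5.26, 5.63, 5.93 and 6.35 in ventilated jnk1-/- lungs, against 5.38, 5.01 and 4.94 in jnk1-/- controls. Of the 155 list genes, the only one called between the genotypes after ventilation was Fcgr1, the high-affinity receptor of IgG. It had 2.18, 2.65, 2.79 and 2.59 in ventilated jnk1-/- lungs, against 6.44, 6.70, 7.77 and 6.32 in ventilated wild-type lungs (adjusted p = 1.29e-05). It had 4.07, 4.14 and 4.05 in jnk1-/- controls, against 6.43, 6.53 and 6.07 in wild-type controls (difference −2.26, adjusted p = 0.00387). Every jnk1-/- array lay below every wild-type array, though the control difference was not called without wild-type control replicates 2 and 3. All 4 ventilated jnk1-/- lungs were at the floor of the authors' table, in which the ventilated wild-type lungs averaged 6.52, so their level was at least 10.5-fold lower. Against the jnk1-/- controls, which averaged 3.92 in that table, their level was at least 1.74-fold lower. The genotypes did not overlap for 26.7% of all probes in controls and 6.35% after ventilation. Mpeg1 was higher by 1.43 in jnk1-/- controls (8.83, against 7.40; adjusted p = 0.0415).

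Of 30 macrophage activation genes, 3 were higher and 4 lower after ventilation in jnk1-/- lungs (10% and 13.3%, against 6.43% and 5.18% of all probes). In wild-type lungs 2 were higher and 0 lower (6.67% and 0%, against 2.18% and 1.61%). Il6 rose by 2.90 in jnk1-/- and 3.31 in wild-type lungs and Socs3, a feedback inhibitor of cytokine receptors, by 2.91 and 2.42. Il6 lay at the authors' floor on 1 of 3 wild-type controls. Arg1, linked to alternative activation, fell by 1.70 in jnk1-/- lungs (adjusted p = 0.00842), where 1 of 4 ventilated arrays lay at the authors' floor. Ccl24, a chemokine also linked to it, was called lower in jnk1-/- lungs (adjusted p = 0.00344), with 2.81, 1.96, 3.42 and 2.77 in ventilated lungs, against 6.23, 5.59 and 4.64 in controls. Of these ventilated arrays 3 of 4 lay at the authors' floor, so no size is given. In wild-type lungs, where neither gene was called, Arg1 had 4.22, 3.67, 3.84 and 3.39 ventilated, against 4.46, 4.27 and 4.71 in controls. Ccl24 had 2.59, 3.09, 4.17 and 3.45 in ventilated wild-type lungs, against 4.50, 4.11 and 4.62 in wild-type controls. Its ventilated wild-type replicates 1 and 2 lay at the authors' floor. Of 22 scavenger receptors and lectins, 4 were higher and 3 lower in jnk1-/- lungs (18.2% and 13.6%, against the same 6.43% and 5.18%). In wild-type lungs 2 were higher and 1 lower (9.09% and 4.55%, against 2.18% and 1.61%). Clec4d, a myeloid lectin also found on neutrophils, rose by 3.48 and 3.32, while Lgals1, a galectin, fell by 1.91 and 1.15. Of 18 genes of the CSF1 and GM-CSF axis, 2 were higher and 0 lower in each genotype, with Myc in both (1.94 and 2.11). Those higher made up 11.1%, against 6.43% of all probes in jnk1-/- and 2.18% in wild-type lungs. Csf1, a ligand of Csf1r, had a mean of 4.92 in ventilated jnk1-/- lungs, against 5.58 in jnk1-/- controls, and 4.78 in ventilated wild-type lungs, against 5.48 in wild-type controls (averaged difference −0.68, adjusted p = 0.131). Il34, the other ligand, lay at the authors' floor on 13 of 14 arrays. Cd163, the haemoglobin scavenger receptor, had 5.98 in ventilated jnk1-/- lungs, against 5.84 in jnk1-/- controls, and 6.38 in ventilated wild-type lungs, against 5.81 in wild-type controls (averaged difference 0.36, adjusted p = 0.229).

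Of 19 complement genes, 0 were higher and 1 lower after ventilation in jnk1-/- lungs, where Cfb, of the alternative pathway, fell by 1.64 (adjusted p = 0.0313), a share of 5.26%, against 5.18% of all probes, and 1 was higher and 0 lower in wild-type lungs, where the call was Itgam, a chain of complement receptor 3. Of 14 myeloid and beta 2 integrins and partners, 2 were higher and 0 lower in each genotype. Those higher made up 14.3%, against 6.43% of all probes in jnk1-/- and 2.18% in wild-type lungs. Between controls Itgal, the CD11a chain of LFA-1, was higher in jnk1-/- lungs by 1.12 (5.52, against 4.40; adjusted p = 0.0101), while Itgax differed by −0.05 (95% confidence interval −0.61 to 0.51).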

How the data were processed

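The authors deposited, per array, log2 intensities not scaled between arrays (lowest value −6.861), and a table of log2 values of their own, normalized by cyclic loess and floored at 3.122. The methods removed genes that failed quality control, which could not be repeated from these values. For every pair of arrays, cyclic loess was run again on the deposited log2 values (span 0.667, 1 pass, lowest values left out of the curves), followed by a floor at the 1st percentile (−0.64). The result correlated with the authors' table, above its floor, at 0.991 or more. Group means were fitted to all 14 arrays in limma 3.58.1 (lmFit and eBayes, R 4.3.3), with Benjamini-Hochberg adjustment over 19621 probes. Of these, 15353 name 1 gene, 91 several and 4177 none, in an annotation that can be old. Promoters and positions come from RefSeq (GRCm38.p6). The steps were tested on simulated data.

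The markers and lists were chosen with earlier results of these data known. Genes named beside the markers are, per list and comparison, at most 4 called genes by adjusted p, the 3 genes most like each marker, and Chil4, C1qc, Csf1, Il34, Cd163, Itgb2 and Mapk8. Lists share genes, and a gene was read from its brightest probe. The title of ventilated wild-type replicate 2 spells the strain differently, and the array was taken as wild type. The p-values measure the spread between these animals, whose small number limits precision. Alternatives concerned scaling, value table, floor, dim probes, arrays in the fit, replicate block, array weights, test, close arrays, probes of a gene and left-out arrays.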

Additional observations from a re-analysis of the deposited data

Results flagged for a closer look

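C1qb and its partner chain C1qc each had 1 array far from the others of its group, and it was the same array. In ventilated jnk1-/- lungs, replicate 3 had a log2 intensity of 10.54 for C1qb, against 9.52 to 9.70 in the other 3, and of 8.95 for C1qc, against 7.80 to 7.91. The gap to the nearest array made up 0.83 and 0.904 of the range of the group. For C1qa the same array was also the highest of its group, at 8.53. It was the highest of its group for 5 of the 7 macrophage genes other than Adgre1. C1qb and C1qc varied together within groups (Pearson correlation 0.90), so their gaps were not independent. By chance about 1 in 20 groups of 4 shows such a gap, and 30 groups of macrophage and related genes were examined.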

How the results depend on the processing

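The ventilation difference of Msr1 averaged over the genotypes kept its sign under all 24 alternatives but lost its call with a replicate block (0.78, adjusted p = 0.107), with close control arrays averaged (0.94, 0.0776), without both wild-type control replicates 2 and 3 (0.96, 0.114, an alternative chosen after seeing the data) and without 5 single arrays, so 0 macrophage genes were then called. Same-numbered arrays did not deviate together (correlations −0.04 to 0.08), so the numbers of the labels were not taken as pairs. Array weights called 2 genes in jnk1-/- lungs, 2 averaged (Itgax −0.46, adjusted p = 0.049, with Msr1) and 2 between controls (Cd68 1.26 and Chil3 1.38). Median scaling lowered the Cd68 and Chil3 differences between controls to 0.70 and 0.54. Without dim probes 1 gene, Cd68, was called between controls, among 1110 called probes. When single arrays were left out, 0 to 1 genes were called averaged and 0 to 1 between controls.

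Small differences changed sign. With median scaling these were Marco averaged (−0.08), C1qb between controls (−0.40) and C1qa and C1qb for the difference of effects (0.26 and 0.13). With the authors' values Adgre1 gave −0.02 in wild-type lungs, −0.01 averaged and −0.02 between controls, and without a floor −0.41 between controls. With array weights Adgre1 gave −0.23 in jnk1-/- lungs, −0.21 in wild-type lungs, −0.22 averaged and −0.02 for the difference of effects, C1qb 0.03 in wild-type lungs, Marco −0.06 averaged, and Itgax 0.10 and C1qa 0.06 between controls. With close arrays averaged Adgre1 gave −0.65 and C1qb −0.11 between controls and C1qa 0.06 for the difference of effects. Without wild-type control replicates 2 and 3, Marco (0.01), Adgre1 (−0.08) and Cd68 (−0.10) turned in wild-type lungs, Chil3 averaged (−0.11), and Marco (0.09), Adgre1 (−0.57) and C1qb (−0.14) between controls. With single arrays left out, the ranges that crossed 0 were in jnk1-/- lungs Chil3 −0.58 to 0.08 and Adgre1 −0.40 to 1.38, in wild-type lungs Adgre1 −0.53 to 1.38 and C1qb −0.20 to 0.03, and averaged Marco −0.02 to 0.21. Between controls they were Msr1 −0.03 to 0.24, Adgre1 −1.02 to 1.28, Itgax −0.30 to 0.16 and C1qb −0.29 to 0.30. After ventilation they were Chil3 −0.04 to 0.33, Msr1 −0.43 to 0.08 and Cd68 −0.26 to 0.08, and for the difference of effects Adgre1 −0.99 to 1.31, C1qa −0.27 to 0.26 and C1qb −0.51 to 0.08. The cause was not tested.

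Of all probes 2278 were called in jnk1-/- lungs, 743 in wild-type lungs, 3110 averaged, 805 between controls, 103 after ventilation and 81 for the difference of effects. A replicate block called 1239, 290, 1846, 382, 54 and 23, array weights 3758, 2219, 5033, 2220, 157 and 355, close arrays averaged 1019, 217, 1626, 155, 78 and 20, and the authors' values 2955, 1138, 3653, 1183, 168 and 207. Fits of the compared groups alone called 642, 441, 117 and 72, and the methods' t-test 41, 20, 2 and 18, neither being run for the averaged and difference contrasts. Median scaling called 1149 in wild-type lungs (502 higher, 647 lower, against 427 and 316) and 1301 between controls (394 and 907, against 376 and 429), and it moved the median of all probes between controls to −0.06, against 0.10. Without dim probes 184 were called after ventilation, 140 for the difference of effects and 1145 in wild-type lungs. Without wild-type control replicates 2 and 3, 167 were called in wild-type lungs, 200 between controls and 1415 averaged. With single arrays left out the counts were 1260 to 2661, 304 to 1051, 2252 to 3487, 240 to 1101, 46 to 227 and 36 to 268.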
